A study of Mus musculus with 6 samples.

Results

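The beta-crystallin genes of the mouse lens were examined in RNA-Seq counts from E14.5 embryos. Members were the rows of the deposited count table named Cryba1, Cryba2 and Cryba4, which encode the acidic beta-crystallins, and Crybb1, Crybb2 and Crybb3, which encode the basic ones. All 6 were found among the 13024 genes of the table. The series compared lenses meant to lack Gata3, a zinc-finger transcription factor of differentiating lens fibres, with control lenses. It held 3 pools of each, and every pool joined 10 lenses from 5 embryos of a mixed C57BL/6 and FVB strain, so the replicates were separate animals. The CKO pools came from Gata3 f/f embryos carrying Pax6-Cre, which recombines in the precursors of lens and cornea, and the deposited genotype of these pools was Gata3 -/-. Controls carried no Cre. The study's methods gave them as Gata3 f/f, its results as Gata3 f/wt, and the labels as wild type. Libraries held 15157230 to 18811104 counts.

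Crystallins are the soluble proteins that fill lens fibre cells and give the lens its refractive power. The alpha-crystallins are small heat shock proteins, whereas beta- and gamma-crystallins share a fold built from Greek key motifs. Gamma-crystallins stay single, and beta-crystallins join into dimers and larger oligomers in which acidic and basic chains mix. Basic chains carry extensions at both ends of the folded core and acidic chains at the amino end alone. Transcription of these genes rises when lens epithelial cells leave the cell cycle and elongate into fibres, under regulators such as Pax6, c-Maf (Maf), Prox1 and Sox1, and mutations in several human counterparts cause congenital cataract.

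Counts of Gata3, the targeted gene, were read first. Control replicates 1, 2 and 3 held 202, 386 and 156 Gata3 counts, and the libraries labelled CKO held 910, 1064 and 894. As CPM, counts scaled to library sizes adjusted by TMM factors for composition, these were 12.8, 27.2 and 8.71 in control and 59, 54.1 and 46.5 in CKO. The log2 fold change was 1.72 (SE 0.40), with an adjusted p of 0.65 in edgeR's quasi-likelihood test with Benjamini-Hochberg adjustment and 0.00163 in DESeq2's Wald test. It was 2.32 (SE 0.20) without control replicate 2. The gene-level count of Gata3 was thus higher in all 3 libraries labelled CKO, against the direction that the label implies. The floxed segment is exon 4, whose loss shifts the reading frame, and counts summed over a gene do not show which exons were read, so the count neither checks nor contradicts the deletion. The groups are therefore called by their labels, and every direction given here rests on those labels.

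Control replicate 2 stood apart from the other control libraries. Its 11 lens fibre marker genes summed to 22500 CPM, against 10800 and 7620 in the other control pools. The CKO pools gave 10600, 8160 and 7120 CPM. The 11 retina markers summed to 884 CPM in control replicate 2, the lowest of the 6 libraries, against 1510 and 2180 in control and 1640, 1430 and 1940 in CKO. In whole lenses, fewer fibre cells and less RNA per fibre cell cannot be told apart. Fold changes of the beta-crystallin genes are therefore given with and without this library.

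Of the 6 members, 4 lay on chromosome 5 in 2 pairs (GRCm38 annotation). Cryba4 (chr5:112246493-112252518, minus strand) and Crybb1 (chr5:112255815-112269585, plus strand) were transcribed away from each other, with 3296 bases between their starts, so an acidic and a basic gene shared the interval that holds both promoters. Crybb2 (chr5:113058258-113070117) and Crybb3 (chr5:113075839-113081584) lay in a row on the minus strand with 5721 bases between them, and 788672 bases separated Crybb2 from Crybb1. Cryba1 (chr11:77718615-77725283) and Cryba2 (chr1:74889934-74893143), both on the minus strand, lay alone. All were protein-coding genes of 5 to 7 exons, with transcripts of 720 to 906 bases. The transcripts of all 6 shared 0 runs of 50 bases with transcripts of other genes, and no exon of a member overlapped an exon of another gene. The body of Nufip2, on the plus strand, spanned Cryba1, so intronic reads of Nufip2 could be separated from Cryba1 by strand alone, and Nufip2 itself stood at 130 to 154 CPM.

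The 250 bases before each start site were read from RefSeq (GRCm38.p6), which had an entry for all 6 members, and searched on both strands for the core words of factors known to act on crystallin genes. The Maf word was TGCTGA. The Sox word was ACAAT, the TATA word was TATAAA, and the GATA words were AGATAA or AGATAG and TGATAA or TGATAG. The promoters of the chromosome 5 genes are shown because these 2 pairs differ in their values, with each match in capitals and 5′ to 3′ along the gene. Positions were Cryba4 chr5:112252519-112252768 (minus strand), Crybb1 chr5:112255570-112255819 (plus strand), Crybb2 chr5:113070118-113070367 (minus strand) and Crybb3 chr5:113081585-113081834 (minus strand).
Cryba4: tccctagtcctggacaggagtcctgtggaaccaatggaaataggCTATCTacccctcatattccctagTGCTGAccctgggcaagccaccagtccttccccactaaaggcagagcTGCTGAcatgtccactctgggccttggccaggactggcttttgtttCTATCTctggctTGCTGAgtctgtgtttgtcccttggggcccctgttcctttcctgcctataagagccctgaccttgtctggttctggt
Crybb1: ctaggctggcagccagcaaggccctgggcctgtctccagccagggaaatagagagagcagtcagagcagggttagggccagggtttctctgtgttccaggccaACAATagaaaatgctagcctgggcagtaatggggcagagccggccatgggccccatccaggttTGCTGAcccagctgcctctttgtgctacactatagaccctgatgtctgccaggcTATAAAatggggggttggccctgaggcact
Crybb2: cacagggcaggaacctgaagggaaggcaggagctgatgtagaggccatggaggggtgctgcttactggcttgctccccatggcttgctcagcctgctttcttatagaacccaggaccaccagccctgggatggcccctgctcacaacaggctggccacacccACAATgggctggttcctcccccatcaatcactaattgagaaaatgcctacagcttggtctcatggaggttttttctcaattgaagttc
Crybb3: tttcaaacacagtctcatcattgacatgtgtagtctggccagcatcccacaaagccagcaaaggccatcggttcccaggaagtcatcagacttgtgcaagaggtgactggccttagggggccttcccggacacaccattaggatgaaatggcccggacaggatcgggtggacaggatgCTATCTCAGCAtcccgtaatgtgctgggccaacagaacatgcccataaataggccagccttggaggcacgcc

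The Maf word stood in 5 of the 6 members, Crybb2 being the exception, and in 16.1% of all 32851 promoters searched. Positions count the base before the start site as -1 and give the first base of a word in the printed direction. Cryba4 held the Maf word 3 times, at -182, -135 and -77, and Crybb1 once, at -84. A GATA word stood in Cryba4, at -206 and -89, and in Crybb3, at -72, each on the opposite strand, so that it reads CTATCT in the printed line; such words stood in 26.5% of all promoters. In Crybb3 the GATA word and the Maf word, which starts at -67 on the opposite strand, shared 1 base. The TATA word stood in Crybb1, at -30, and in Cryba1, at -23, and in 12.4% of all promoters. The Sox word stood in Crybb1, at -147, and Crybb2, at -88, and in 27.7% of all promoters. A match is a description of letters, not a binding site or a cause, and a missing word says only that these letters are not in this window.

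Beta-crystallin mRNAs were among the most abundant of the lens. By mean CPM among all 13024 genes, Cryba1 ranked 2 in both groups, Crybb1 ranked 4 in control and 3 in CKO, and Crybb3 ranked 5 and 6. Cryba4 ranked 10 in control and 23 in CKO, and Cryba2 ranked 18 and 37. Levels of different genes were compared per kilobase of transcript. In control lenses, Cryba1 stood at 22100 ± 12000 CPM per kb (SD, n = 3), Crybb1 at 12900 ± 7870 and Crybb3 at 12500 ± 6860, and Cryba4 and Cryba2 followed at 5200 ± 2940 and 3640 ± 2010. Each of these 5 genes overlapped its neighbours in that order, as the highest control library held 2.74 to 3.03 times the level of the lowest. In the libraries labelled CKO the levels were 11800 ± 2160 for Cryba1, 7090 ± 870 for Crybb1, 5520 ± 807 for Crybb3, 2000 ± 445 for Cryba4 and 1590 ± 317 CPM per kb for Cryba2. There Cryba1 lay above Crybb1 without overlap and Crybb3 above Cryba4, while Crybb1 overlapped Crybb3 and Cryba4 overlapped Cryba2. Within single libraries the order was steadier. Cryba1 was highest, Cryba4 stood above Cryba2 and Crybb2 was last in all 6 libraries. Crybb1 and Crybb3 changed places, with per-kilobase ratios of Crybb3 to Crybb1 of 1.01, 0.925 and 1.02 in control and 0.79, 0.789 and 0.749 in the libraries labelled CKO.

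Crybb2, the gene of a basic chain that is abundant in the mature lens, stood far below the rest. Control replicates 1, 2 and 3 held 48, 57 and 21 Crybb2 counts, and the CKO pools held 29, 57 and 23. The neighbouring Crybb3 held 1556 to 5224 counts for each count of Crybb2. At this depth the 95% Poisson interval of the lowest count, 21, ran from 13 to 32.1 counts. Its level was 2.74 ± 1.45 CPM in control and 1.99 ± 0.857 CPM in CKO (SD, n = 3), ranges that overlapped.

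Among the acidic members, Cryba4 had the lowest ratio of CKO to control. Control replicates 1, 2 and 3 stood at 3390, 6880 and 2330 CPM, and the CKO replicates at 2000, 1570 and 1290. All CKO values lay below all control values, and control replicate 2 was the highest of the 6. The log2 fold change was -1.37 with SE 0.41 (95% interval -2.36 to -0.39), or 0.386 of the control level. Cryba2, the acidic gene on chromosome 1, gave 2060, 4260 and 1530 CPM in control and 1390, 1110 and 939 in CKO. These groups did not overlap either, and the log2 fold change was -1.19 with SE 0.39. Cryba1, whose mRNA is translated from alternative start codons into the A3 and A1 chains, gave 14600, 27500 and 9450 CPM in control and 11000, 8970 and 7650 in CKO. Here control replicate 3 lay below CKO replicate 1, so the groups overlapped, and the log2 fold change was -0.90 with SE 0.40 (95% interval -1.85 to 0.05, which included 0).

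Among the basic members, Crybb3 gave 8070, 16800 and 6130 CPM in control and 5260, 4510 and 3930 in CKO. The groups did not overlap, and the log2 fold change was -1.18 with SE 0.38. Crybb1, whose long amino-terminal extension sets it apart from the other chains, gave 8490, 19300 and 6380 CPM in control and 7090, 6090 and 5590 in CKO. CKO replicate 1 lay above control replicate 3, and the log2 fold change was -0.87 with SE 0.42 (95% interval -1.86 to 0.13, which included 0). Crybb2 had a log2 fold change of -0.45 with SE 0.52, and its 95% interval of -1.69 to 0.80 also included 0.

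**Figure D1:**
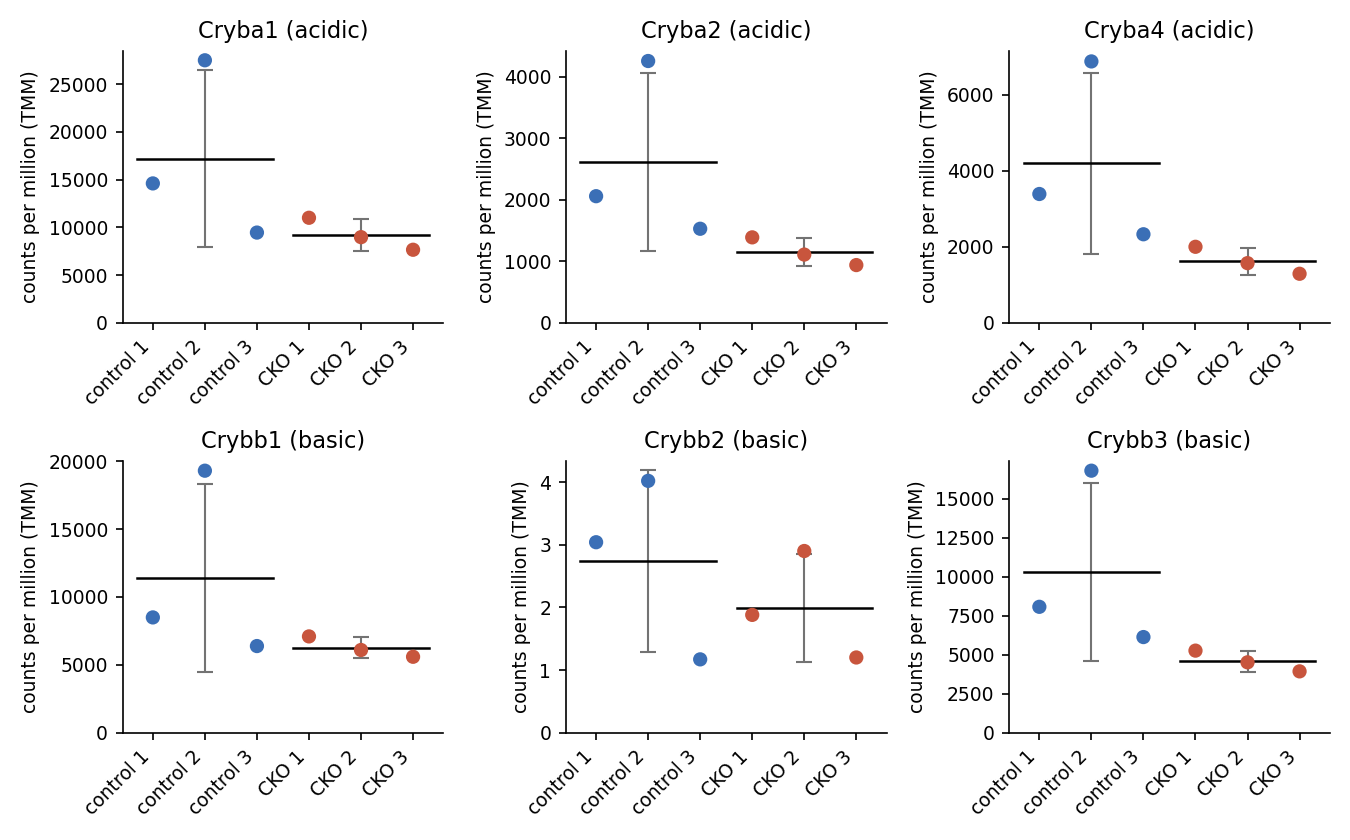
CPM (TMM-scaled) of the 6 beta-crystallin genes in each library, with control in blue and libraries labelled CKO in red; black lines are group means and grey bars are ± SD of 3 pools, and the vertical axes start at 0 and differ between panels. Control replicate 2 is the highest point in every panel, and Cryba2, Cryba4 and Crybb3 have all red points below all blue points.

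No member passed the edgeR quasi-likelihood test at a Benjamini-Hochberg adjusted p of 0.05, and neither did any other gene (0 of 12879 tested, 0%). Under this test Cryba4 had an adjusted p of 0.989 and the other 5 members had adjusted p-values of 1. At an unadjusted p under 0.05, 3 of the 6 members were lower in CKO (Cryba4 0.0135, Crybb3 0.0195, Cryba2 0.0198), against 2.24% of all genes tested (289 lower and 168 higher in all). That balance turned with total library size as the scaling (191 lower, 428 higher) and without control replicate 2 (317 lower, 489 higher). The same 3 members had groups that did not overlap, against 4.69% of all genes. All 6 log2 fold changes were below 0, against 49.4% of all genes. The voom fit of limma passed 0 genes. DESeq2's Wald test passed 85 genes and placed Cryba4 among them, at an adjusted p of 0.0244, as 1 of 6 members against 0.435% of genes called lower by it. Over all alternatives the adjusted p of Cryba4 ran from 0.0244 to 1.

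Without control replicate 2 the same differences were smaller. The log2 fold change became -0.81 (SE 0.24) for Cryba4, -0.64 (0.21) for Cryba2 and -0.63 (0.17) for Crybb3, whose groups still did not overlap. It became -0.38 (0.23) for Cryba1 and -0.24 (0.16) for Crybb1, and -0.06 (0.54) for Crybb2. No adjusted p of a member passed in the edgeR fit of these 5 libraries, the lowest being 0.472 for Crybb3. At an unadjusted p under 0.05, 3 of the 6 members were again lower (Crybb3 0.00814, Cryba4 0.017, Cryba2 0.0216), against 2.47% of all genes in that fit. The differences were thus smaller without this 1 library, in proportion most so for Crybb2, Crybb1 and Cryba1. The order of the 5 abundant members, with Cryba4 lowest and Crybb1 nearest to 0, was the same with and without it. Other libraries left out changed that order. Without control replicate 1, Crybb1 (-1.02) lay below Cryba1 (-0.99). Without CKO replicate 3, Crybb3 (-1.08) lay below Cryba2 (-1.07), and Crybb1 (-0.79) below Cryba1 (-0.78). Over all 6 libraries the members of each of these pairs differed by less than their SEs.

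**Figure D2:**
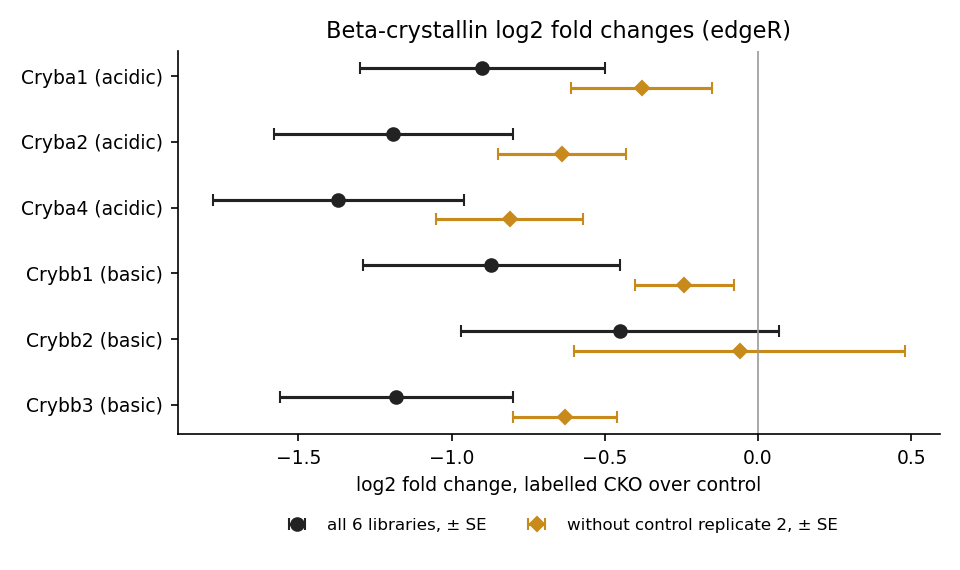
edgeR log2 fold changes (libraries labelled CKO over control) of the 6 members, with bars of ± SE, from all 6 libraries (black circles) and without control replicate 2 (amber diamonds). All points lie below 0, and those from 5 libraries lie closer to 0, at -0.81 for Cryba4 and -0.24 for Crybb1.

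The beta-crystallin genes together took 3.65%, 6.50% and 2.67% of all control counts in replicates 1, 2 and 3, against 2.72%, 2.32% and 2.04% in CKO. Clopper-Pearson 95% intervals of every share given here reached at most 0.161 percentage points to either side, for counting error alone. The mean share was 4.27% ± 1.99 in control and 2.36% ± 0.342 in CKO (SD, n = 3), a log2 ratio of -0.86, and the groups overlapped at control replicate 3 and CKO replicate 1. Without control replicate 2 the log2 ratio was -0.42. The split between acidic and basic genes was first taken from summed counts. The acidic genes gave 54.8%, 51.7% and 51.5% of beta-crystallin counts in control and 53.8%, 52.3% and 50.9% in CKO, and the log2 ratio of acidic to basic CPM was 0.15 ± 0.11 in control and 0.14 ± 0.083 in CKO. That difference of -0.02 was smaller than the spread between pools. It was -0.32 when the log2 CPM of the genes of a class was averaged, which weights all members equally, and -0.16 by the same average without Crybb2, an alternative added after the data were seen.

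Proportions between single members differed more than the ratio of summed counts. Ratios between members of a library do not depend on how libraries are scaled. Cryba4 counted 0.399, 0.356 and 0.365 for each count of its neighbour Crybb1 in control, and 0.282, 0.257 and 0.231 in the libraries labelled CKO. The groups did not overlap, and the log2 ratio differed by -0.54 between CKO and control, from -1.42 ± 0.088 to -1.97 ± 0.15 (SD, n = 3). Leaving out any library kept this difference between -0.61 and -0.47. So the acidic and the basic gene of this divergent pair, each lower in CKO on average, were lower by different amounts.

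After these values were seen, the other members were set against Crybb1 as well. The log2 ratio of Crybb3 to Crybb1 was -0.07, -0.20 and -0.06 in control and -0.43, -0.43 and -0.51 in CKO, a difference of -0.34. That of Cryba2 to Crybb1 was -2.04, -2.18 and -2.06 in control and -2.35, -2.46 and -2.57 in CKO, a difference of -0.37. For Cryba1 it was 0.78, 0.51 and 0.57 in control and 0.63, 0.56 and 0.45 in CKO, where the groups overlapped. The sparse Crybb2 gave -11.45, -12.23 and -12.41 in control and -11.88, -11.04 and -12.19 in CKO, a difference of 0.33 in the other direction, also with overlap. Cryba1 and Crybb1, an acidic and a basic gene on different chromosomes, thus kept their proportion within the spread of the pools, and Cryba2, Cryba4 and Crybb3 were lower relative to Crybb1 in every CKO library than in any control. A lower ratio to Crybb1 without overlap was found in 0.567% of all other genes tested. Because Crybb1 was itself lower in CKO while the median gene stood at 0, that share is low by construction and does not measure how unusual these 3 members are. Cryba4 was set against the other abundant members too. Its log2 ratio to Crybb3 differed by -0.20 between CKO and control, with overlap. To Cryba1 and Cryba2 the differences were -0.47 and -0.18, without overlap. The ratio of Cryba4 to Crybb1 was planned as a description, the others were chosen after their values were known, and no test of them was run. An exact two-sided permutation test of 3 pools against 3 gives no p below 0.10.

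**Figure D3:**
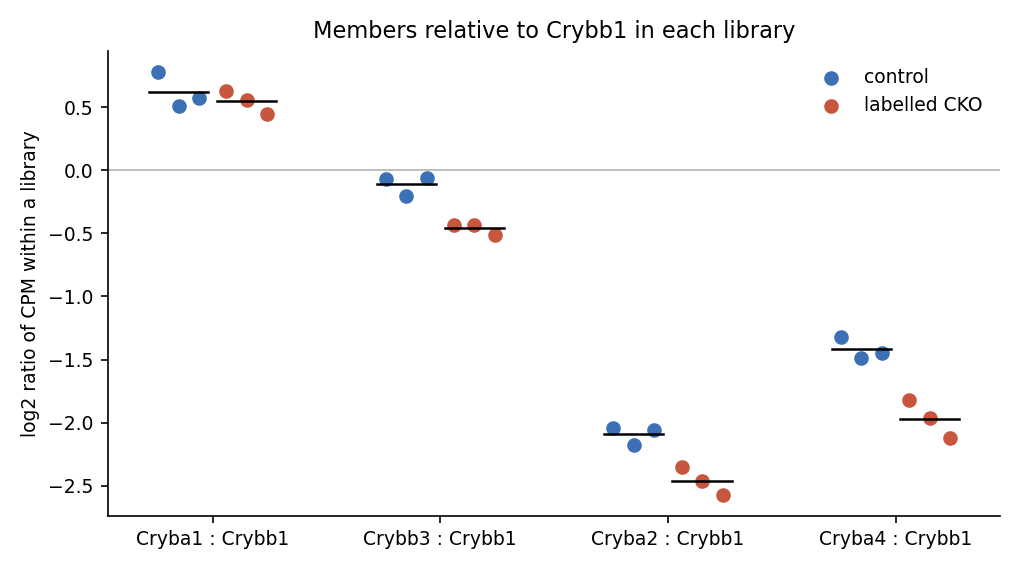
Log2 ratio of the CPM of Cryba1, Crybb3, Cryba2 and Cryba4 to that of Crybb1 within each library (control blue, labelled CKO red), with black lines for group means; Crybb2, at -12.41 to -11.04, is not drawn. Points of Cryba1 mix, and for the other 3 genes every red point lies below every blue point, with means of -1.42 and -1.97 for Cryba4.

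The shifts also show in the make-up of beta-crystallin counts. Crybb1 made up 24.6% ± 1.33 of beta-crystallin counts in control and 27.6% ± 1.16 in CKO (SD, n = 3), where it was higher without overlap. Cryba4 made up 9.16% ± 0.121 in control and 7.06% ± 0.42 in CKO, Crybb3 22.7% ± 0.888 and 20.1% ± 0.341, and Cryba2 5.75% ± 0.157 and 5.01% ± 0.18, each lower in CKO without overlap. Cryba1 made up 37.8% ± 1.84 and 40.3% ± 0.837, with overlap. Crybb2 took at most 0.013% in any library. Among acidic genes the higher share of Cryba1 stood against lower shares of Cryba2 and Cryba4, and among basic genes that of Crybb1 stood against Crybb3, so the class totals hid these differences.

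The pair on the minus strand gave wider ratios. The log2 ratio of Crybb2 to Crybb3 was -11.37, -12.03 and -12.35 in control and -11.45, -10.60 and -11.68 in CKO. The groups overlapped, and their difference of 0.67 compares with SDs of 0.50 and 0.57 within the groups. It was 0.35 without CKO replicate 2 and 0.94 without control replicate 1, the ends of its range with a library left out. Crybb2 rests on at most 57 counts a library, so this ratio carries the counting error of Crybb2.

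Among all crystallin counts, the beta class differed less between groups than the alpha and gamma classes. Beta-crystallins made up 39.3%, 39.5% and 40.2% of crystallin counts in control and 37.4%, 39.0% and 37.2% in CKO, lower without overlap. The gamma-crystallins, which are typical of fibre cells, made up 24.7% ± 0.896 in control and 15% ± 0.929 in CKO, and the alpha-crystallins 35.7% ± 0.902 and 47% ± 1.53 (SD, n = 3). Sequence runs shared with other genes were searched for the beta-crystallin genes alone, so whether the counts of the other classes are complete was not tested. Of the 10 other crystallin genes 9 had a log2 fold change below 0, and their median was -1.46 against -1.04 for the beta-crystallins and 0.00 for all genes tested. Without control replicate 2 the medians were -0.84 and -0.50, and 8 of the 10 were below 0 and 2 above. Cryab, an alpha-crystallin gene, was above 0 in both fits, at 0.14 and then 0.7. Crygs turned from -0.21 to 0.48. Cryaa, the most abundant crystallin mRNA, stood at -0.55 (SE 0.41), and at -0.02 (SE 0.21) without control replicate 2. Crygf stood at -3.63 (SE 0.65) and Crygb at -2.67 (SE 0.50), both without overlap between groups, and at -2.86 (SE 0.57) and -2.03 (SE 0.34) without that library. Of the 10, 7 had an unadjusted p under 0.05 and none passed edgeR's quasi-likelihood test after Benjamini-Hochberg adjustment, while DESeq2 passed Cryga, Crygb and Crygf. Crybg3, a gene with the same fold outside the crystallins, had a log2 fold change of -0.05, or -0.24 without control replicate 2. Crybg1 and Crybg2 were not in the table under these or older symbols.

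**Figure D4:**
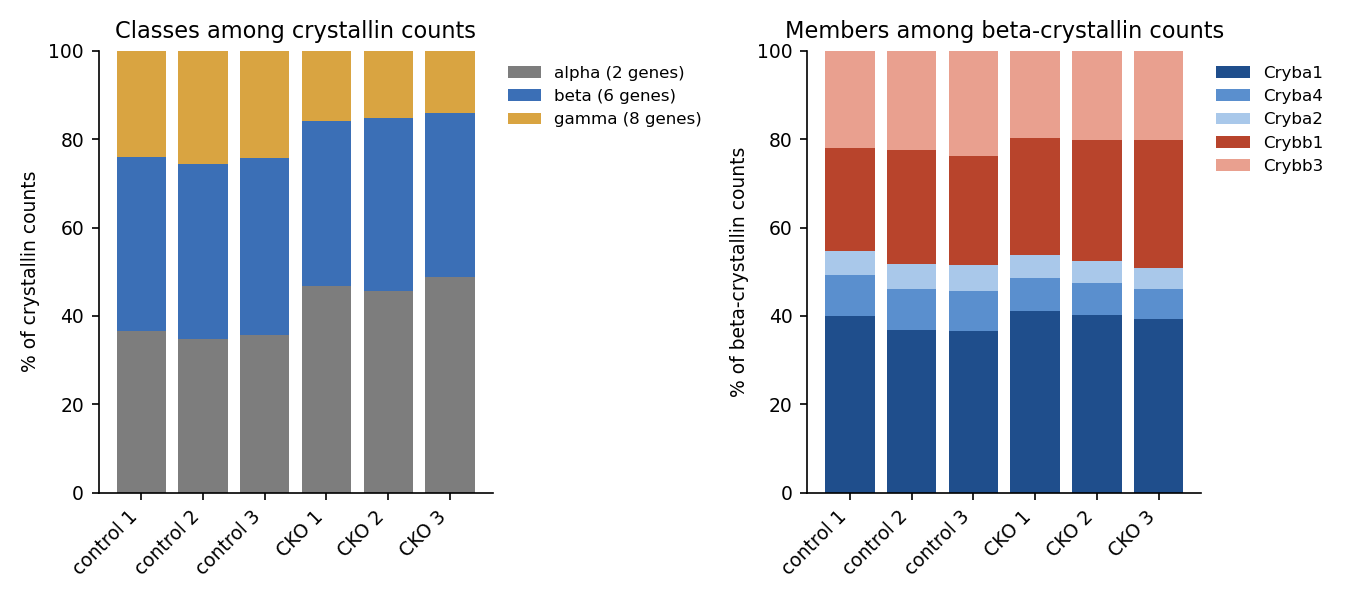
Left, share of crystallin counts from the 2 alpha, 6 beta and 8 gamma genes in each library; right, share of beta-crystallin counts from each member, with Crybb2 too small to draw. The beta band lies between 37.2% and 40.2%, and Cryba4 has a mean of 9.16% of beta-crystallin counts in control and 7.06% in libraries labelled CKO.

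Of 17 known regulators of crystallin genes, 12 had a log2 fold change below 0 and 5 above, with a median of -0.05. Without control replicate 2, 10 were below 0 and 7 above, with a median of -0.06. Pax6, which acts at the top of eye development, gave -0.04 (SE 0.086), Maf, a main activator of crystallin promoters, -0.50 (SE 0.34), and Prox1 and Sox1, which act with it in fibres, -0.15 (SE 0.34) and -0.19 (SE 0.34). In the fit without that library these values were -0.07 for Pax6, 0.02 for Maf, 0.31 for Prox1 and 0.35 for Sox1, so the last 3 changed sign. Hsf4, a heat shock factor of the lens, was the only one of the 17 with an unadjusted p under 0.05 over all 6 libraries; without control replicate 2, Sox1 and Pitx3, both higher in CKO, were among those that also had one. The CPM of Hsf4 was 61.3, 130 and 50.8 in control and 41.8, 36.2 and 31.3 in CKO, without overlap, and its log2 fold change of -1.15 (SE 0.36) did not pass edgeR's quasi-likelihood test after Benjamini-Hochberg adjustment (adjusted p 1). Its log2 fold change was -0.61 (SE 0.14) without control replicate 2. Maf was also highest in control replicate 2, at 871 CPM, against 341 to 434 in the other 5 libraries. Retina markers were present in every library, and the part of retina in the values of these regulators was not tested.

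The genes beside the members were examined too. Within 100 kb of a member lay 11 other genes of the table, and their log2 fold changes ran from -0.20 (Nhej1, a DNA repair factor, SE 0.26) to 0.19 (Srrd, SE 0.16), with a median of 0.02. Miat, a long noncoding RNA 17098 bases from Cryba4, gave 1760, 1280 and 2380 CPM in control and 1960, 1700 and 1600 in CKO, and its log2 fold change was -0.05 (SE 0.23). Tpst2, a sulfotransferase gene 7106 bases beyond Crybb1, gave 0.16 (SE 0.15). Nufip2, whose body spans Cryba1, gave 0.02 (SE 0.084), and 2900026A02Rik, 4739 bases from Crybb3, gave 0.06 (SE 0.16). None of the 11 had an unadjusted p under 0.05 over all 6 libraries. Their range was -0.37 (Cdk5r2) to 0.27 (2900026A02Rik, unadjusted p 0.0334) without control replicate 2, where Miat gave -0.23.

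The 10 genes outside the crystallins whose centred log2 CPM profile over the 6 libraries lay nearest to the mean profile of the members included Samd5, Snx22, Hacd4, Slc24a4, Slc7a11, Lim2, Mip, Tdrd7 and Pygm. Their root mean square difference from that profile was 0.0571 (Samd5) to 0.106 (Pygm) log2 units, out of 10406 genes compared. The members' profile itself stood at 0.33, 1.27 and -0.29 in control and -0.22, -0.35 and -0.74 in CKO. Mip, the water channel aquaporin-0 of fibre membranes, gave 3900, 8070 and 2770 CPM in control and 3170, 2730 and 2290 in CKO, and Lim2, another fibre membrane protein, gave 758, 1610 and 565 and then 566, 458 and 406. Tdrd7, a component of RNA granules whose loss causes cataract, gave 672, 1360 and 453 and then 485, 365 and 306. By the same measure Cryba1 lay 0.0703 from the members' mean, Crybb3 0.123, Cryba2 0.129, Crybb1 0.137, Cryba4 0.201 and Crybb2 0.424.

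Marker genes of lens fibres, Mip and Lim2 among them, also had log2 fold changes below 0. Of 12 listed, 11 were in the table (Lgsn was not), all 11 were below 0, and their median was -1.42, or -0.86 without control replicate 2, when 9 were below 0. Of the 11, 7 had an unadjusted p under 0.05 and 6 had groups that did not overlap, Mip and Lim2 not being among those 6, and none passed edgeR's quasi-likelihood test after Benjamini-Hochberg adjustment, while DESeq2 passed 5 (Bfsp1, Bfsp2, Lenep, Birc7 and Dnase2b). Dnase2b, the nuclease that degrades fibre nuclei, gave -4.64 (SE 0.59) and the beaded filament genes Bfsp1 and Bfsp2 gave -2.72 (SE 0.47) and -1.55 (SE 0.34). These were -4.15, -2.00 and -1.08 without control replicate 2. The 5 lens epithelium markers, led by Pax6 and sharing it and Foxe3 with the regulators above, summed to 1270, 1600 and 1100 CPM in control and 1180, 1190 and 1160 in CKO, with a median of -0.35, or 0.14 without control replicate 2. Whether retina mRNA added to these sums was not tested.

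Markers of other tissues were present in every library. The 11 retina markers had a median log2 fold change of 0.16, and all 11 were above 0. Without control replicate 2 it was -0.13, and 10 were below 0. Mesenchyme markers (10 of 11 in the table, without Foxc2, led by Col1a2) summed to 2230, 470 and 238 CPM in control and 240, 4050 and 512 in CKO. Pigment cell markers (6 of 8, led by Pmel; Rpe65 and Slc45a2 were not in the table) summed to 341, 98.6 and 69.8 and then 86.4, 341 and 72.6. Control replicate 1 and CKO replicate 2 were thus high in both. Blood markers (8 of 9, without Hba-a1, led by Hbb-y, with Hba-a2, Hbb-bt and Hbb-bs at 0) summed to 581, 1390 and 385 and then 310, 455 and 449, highest in control replicate 2. Deposited genes had a mean FPKM above 1, so the 0 counts of Hba-a2, Hbb-bt and Hbb-bs do not show absent mRNA. The blood sums may therefore be incomplete. The median log2 fold change of the mesenchyme markers was 0.63, with all 10 above 0, and 0.24 without control replicate 2. That of the pigment markers was 0.06 and then -0.27. That of the 5 blood markers tested was -0.76, with all 5 below 0, and -0.07 without control replicate 2. Vessel markers (7, led by Kdr) had a median of -0.45, macrophage markers (10, led by Csf1r) of -0.51 and surface ectoderm markers (7, led by Krt5) of 0.34, and these became -0.30, -0.25 and 0.44 without it. The vessel genes summed to 330, 322 and 261 CPM and then 231, 284 and 233, the macrophage genes to 117, 155 and 82.7 and then 69.5, 95.6 and 74.8, and the ectoderm genes to 106, 93.7 and 44.4 and then 58.9, 161 and 75.4. The part of these cells in the beta-crystallin differences was not tested.

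**Figure D5:**
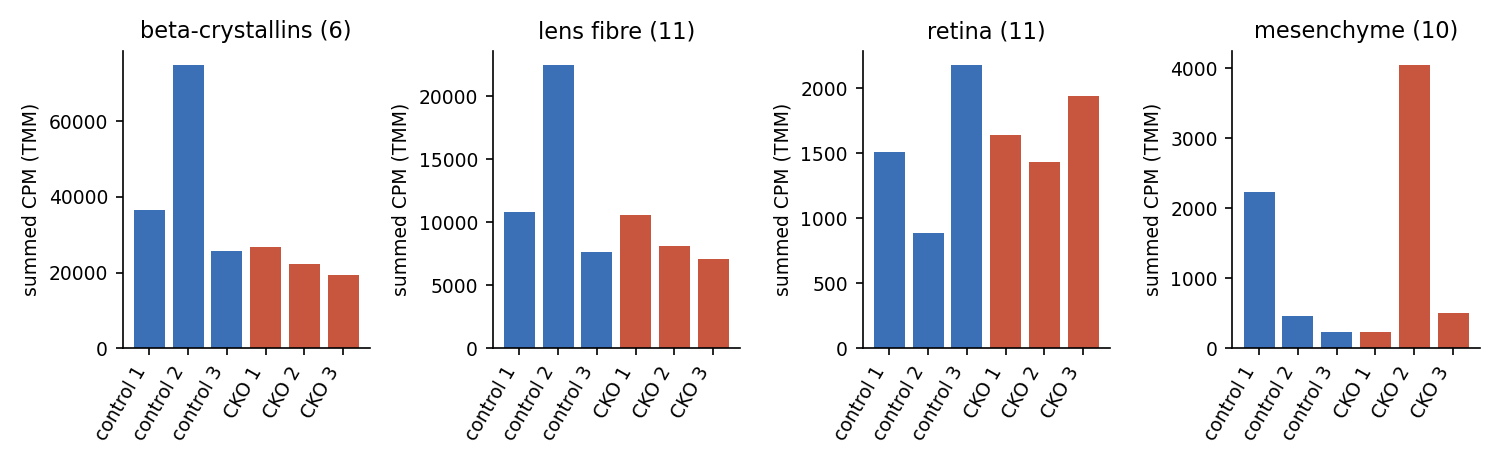
Summed CPM (TMM-scaled, bars from 0) of the 6 beta-crystallin genes and of the lens fibre, retina and mesenchyme markers in each library, control in blue and labelled CKO in red, each panel with its own axis. Control replicate 2 is the highest for beta-crystallins and fibre markers (74800 and 22500) and the lowest for retina markers (884), and mesenchyme markers peak in CKO replicate 2 (4050).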

How the data were processed

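Strand-specific polyA RNA-Seq libraries were made from 6 pools of E14.5 lenses. The authors trimmed reads with Trim Galore, aligned them to mm10 with TopHat2 2.0.13, counted fragments per RefSeq gene with HTSeq 0.6.1 and deposited raw counts for genes with a mean FPKM above 1 (Cuffdiff 2.2.1) in control or CKO lenses. Which strand setting the counting used, and how it treated overlaps, was not given in the sources used here. CKO libraries are numbered by their titles, and the sample descriptions number them differently.

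Counts were normalized by TMM and tested with edgeR 4.0.16 in R 4.3.3 (robust quasi-likelihood fit, glmQLFTest, Benjamini-Hochberg adjusted p under 0.05). Genes needed 10 or more counts in 3 or more libraries. DESeq2 1.42.0 and limma 3.58.1 (voom), other normalizations, no filter, a replicate block and leaving out each library were alternatives. The code was tested on simulated counts. Profiles were compared on log2 CPM with a prior count of 1, over genes with a mean CPM of at least 10. Gene positions came from GENCODE M21 and promoters from RefSeq. Named genes were the members, Gata3, other crystallins and fold relatives, crystallin regulators, genes within 100 kb, the 10 nearest profiles and marker lists. Some genes of these lists are not reported here by name. Members and lists were chosen with earlier results of these data known. Shares have Clopper-Pearson 95% intervals.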

Additional observations from a re-analysis of the deposited data

How the results depend on the processing

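Across 13 alternatives for each of the 6 members, all 78 log2 fold changes were below 0, and 77 stayed on the same side of the threshold. DESeq2 alone passed a member, Cryba4, at -1.37; the cause was not tested. With each library left out, log2 fold changes ran from -1.66 to -0.81 for Cryba4, -1.46 to -0.64 for Cryba2, -1.44 to -0.63 for Crybb3, -1.20 to -0.38 for Cryba1, -1.15 to -0.24 for Crybb1 and -0.83 to -0.06 for Crybb2; the values nearest 0 came without control replicate 2.

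The edgeR test passed 0 genes, DESeq2 85, and total library size alone 1 (Megf10). Leaving out a library gave 0 to 1 (4930412O13Rik, without control replicate 3); both genes were named after their values were seen. At unadjusted p under 0.05, 289 genes were lower and 168 higher; library size alone gave 191 and 428, and leaving out a library gave 148 to 769 and 121 to 489 (317 and 489 without control replicate 2). Library size alone moved the median log2 fold change of all genes to 0.103 and the lower share of these genes from 63.2% to 30.9%; without control replicate 2 it was 39.3%.

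With the replicate block, 0 genes passed, and at unadjusted p under 0.05, 339 were lower and 177 higher. Libraries with the same title number had correlations of -0.487, 0.09 and 0.442 in their deviations. By the numbers in the sample descriptions, control replicates 2 and 3 would match CKO replicates 1 and 2, with correlations of 0.088 and -0.48. With 3 libraries a group, these values cannot settle whether libraries were paired. The block changed no member's call.

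The log2 ratio of beta-crystallin shares ran from -1.10 to -0.42 with a library left out. The Crybb2 to Crybb3 difference, 0.67, ran from 0.35 to 0.94. The acidic to basic difference, -0.02, became -0.32 from mean log2 CPM of each class and -0.16 from that without Crybb2, and ran from -0.06 to 0.04, above 0 without control replicate 1 (0.04) or CKO replicate 3 (0.02). The log2 ratio of Cryba1 to Crybb1 differed by -0.07, and by -0.13 to 0.01 with a library left out, above 0 without control replicate 1; this comparison was added after the data were seen. The spread between 3 pools limited the precision for all 6 members, and Crybb2, at 21 to 57 counts, carried counting error as well.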
